A study of Mus musculus with 20 samples.

Results

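The 8 kidney aquaporins Aqp1, Aqp2, Aqp3, Aqp4, Aqp6, Aqp7, Aqp8 and Aqp11 and the vasopressin V2 receptor gene Avpr2 were followed in mouse kidney after ischemia-reperfusion injury (IRI) and after a pair of pretreatments. The 9 genes were chosen by name, as the water channels of the kidney and the receptor that governs one of them, out of 27827 gene names on the array. They were read by 12 of its 41174 probes. RNA of whole kidney from male C57BL/6 mice aged 8 to 12 weeks was hybridised to one-color Agilent arrays, with 4 arrays in each of 5 groups.

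Control mice had neither surgery nor treatment, so no sham operation stands among the 5 groups. In the IRI group both renal pedicles were clamped for 45 min and the kidneys were reperfused for 6 h. The IRI+Hemin group received hemin, an inducer of heme oxygenase-1, at 25 mg/kg into the peritoneum 24 h before the same clamping, and the Hemin group received the same dose with no surgery. In the IPC+IRI group (ischemic preconditioning) a clamping of 15 min preceded IRI by 7 days. All 5 groups were of the same strain and carried no transgene or deletion.

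Vasopressin binds the V2 receptor on the basolateral side of collecting duct principal cells. The receptor couples through Gs to adenylate cyclase, cyclic AMP activates protein kinase A, and Aqp2 is then phosphorylated and carried in vesicles to the apical membrane, while CREB proteins drive transcription of its gene. Water leaves the cell through Aqp3 and Aqp4 in the basolateral membrane. Aqp1 is the constitutive water channel of the proximal tubule and the thin descending limb, Aqp7 carries water and glycerol in the straight part of the proximal tubule, Aqp6 is an anion-permeable channel of intercalated cell vesicles, and Aqp8 and Aqp11 are mainly intracellular. Loss of function of the V2 receptor or of Aqp2 causes nephrogenic diabetes insipidus.

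The promoters of Aqp2 and Avpr2 are shown because these genes stand at either end of this pathway and had the largest called fall and rise among the 9 genes in IRI vs Control. Both are RefSeq sequences of GRCm38.p6, 250 bases ending just before the annotated start site, on the + strand, Aqp2 at chr15:99578806-99579055 and Avpr2 at chrX:73891852-73892101. Capitals mark CGTCA, the reverse complement of the CRE core TGACG, whose first base lies 211 bases before the start site, and TTATCT, the reverse complement of the GATA motif AGATAA, whose first base lies 202 bases before it.
Aqp2 promoter: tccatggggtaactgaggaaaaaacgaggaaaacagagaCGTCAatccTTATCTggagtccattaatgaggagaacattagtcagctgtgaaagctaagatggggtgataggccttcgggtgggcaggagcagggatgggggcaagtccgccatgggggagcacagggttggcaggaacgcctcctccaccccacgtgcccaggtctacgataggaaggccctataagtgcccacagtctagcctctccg
Avpr2 promoter: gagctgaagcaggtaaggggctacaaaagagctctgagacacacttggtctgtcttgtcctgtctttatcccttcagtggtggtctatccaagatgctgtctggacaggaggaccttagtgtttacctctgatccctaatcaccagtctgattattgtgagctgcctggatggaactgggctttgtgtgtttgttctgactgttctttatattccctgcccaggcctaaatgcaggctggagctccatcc
The motifs were searched on both strands and do not overlap in the Aqp2 window. TGACG was present in 17.8% and AGATAA in 9.99% of 32851 RefSeq promoter windows of this length, and the full CRE, TGACGTCA, in 1.55%. Of the 9 windows searched for 8 of the genes (Aqp4 was not used here), only that of Aqp2 held the CRE core, the GATA motif was in that of Aqp2 and in 1 of the Aqp7 windows, and the full CRE was in none. A match or its absence describes the letters of these windows and nothing more.

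The array read Aqp2 with a single probe of 60 bases, aligned by the array's annotation to mm9 chr15:99412578-99413554 on the + strand, a span of 977 bases, so the probe lies across a splice junction of the transcript. It is shown because the Aqp2 levels below rest on it alone.
Aqp2 probe: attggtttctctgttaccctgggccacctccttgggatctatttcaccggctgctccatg
The Avpr2 probe lies at mm9 chrX:71139568-71139627 on the + strand. Aqp7 was read by 2 probes that overlap each other, at chr4:40981221-40981280 and chr4:40981243-40981302 on the - strand, Aqp4 by 3 probes and every other gene by 1.

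A level here is log2 of the background-corrected signal over the 75th percentile of its array, so 0 means a gene as bright as that percentile, and a difference of 1 between groups is 2-fold. Levels were not compared between genes, which have different probes. Differences between groups were tested with limma in 1 fit of the 20 arrays, and a gene is called where the Benjamini-Hochberg adjusted p over all genes tested in that comparison is below 0.05. All 12 probes were well above background on every array, except 1 Aqp4 probe on 1 Control array, and none was saturated, so all 9 genes passed the filter in all comparisons.

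The 75th percentile ranged from 147 to 358 intensity units over the arrays, 57.4% to 67.4% of genes were well above background, and replicates of a group correlated at 0.975 to 0.995 over genes. The 4 arrays of a group shared 1 slide, which held no other group, so the effects of slide and of group cannot be told apart. The 3 scan days put Control with IRI, IPC+IRI with Hemin, and IRI+Hemin alone. All 8 proximal tubule markers, 4 thick limb markers and 6 principal cell markers were above background, each on at least 1 array. Whole kidney was measured, so fewer cells of a type and less RNA per cell cannot be told apart. The balance of calls over all genes depended on the processing, so beside each comparison its range is given over the other 3 scalings (none, quantile, and the percentile over bright probes), and the values with normexp background correction or the deposited log2 values where these lie outside that range. Markers of other cells that were tested are given beside the comparisons as counts called higher and lower, and their part in the differences was not tested.

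**Figure D1:**
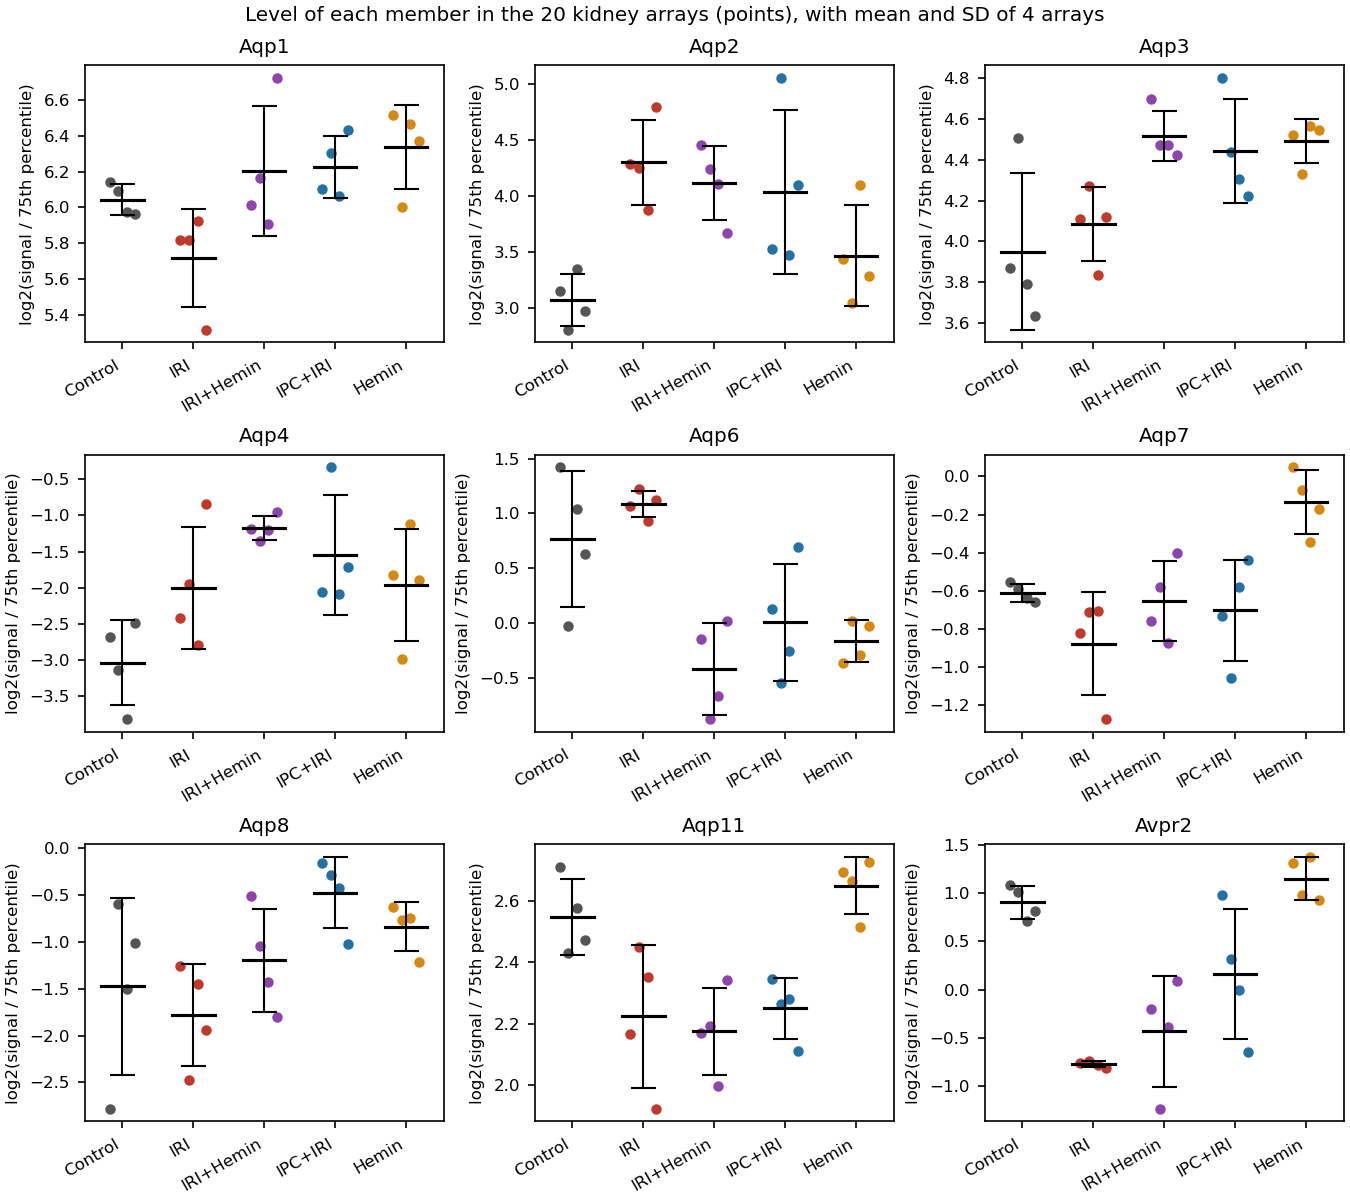
Log2 level of the 9 genes (vertical axis, log2 of signal over the 75th percentile of the array) on each of the 4 arrays (points) of the 5 groups (horizontal axis), with the mean (line) and SD (bar). Avpr2 lies between -0.82 and -0.74 on the 4 IRI arrays and between 0.72 and 1.09 on the 4 Control arrays, while Aqp2 lies between 3.87 and 4.80 in IRI and between 2.80 and 3.34 in Control.

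Avpr2, the receptor, was high in uninjured kidney and low after IRI. On the 4 Control arrays its log2 level was 1.09, 1.01, 0.72 and 0.81, with a mean of 0.91 ± 0.17 (SD, n = 4). On the IRI arrays it was -0.76, -0.74, -0.78 and -0.82, with a mean of -0.77 ± 0.03 (SD, n = 4). Every IRI array lay far below every Control array, and the IRI arrays lay close together. IRI+Hemin arrays read -0.20, -1.24, -0.39 and 0.09, with a mean of -0.43 ± 0.57 (SD, n = 4). IPC+IRI arrays read 0.98, 0.31, 0.00 and -0.64, with a mean of 0.16 ± 0.67 (SD, n = 4). These pretreated and injured kidneys spread widely, IPC+IRI from the Control range down to near the IRI range. In the Hemin group, without surgery, Avpr2 was 1.32, 0.98, 1.37 and 0.93, with a mean of 1.15 ± 0.23 (SD, n = 4), and overlapped Control.

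Aqp2, the vasopressin-regulated apical channel, ran the other way in IRI vs Control. Control arrays read 3.15, 2.80, 3.34 and 2.97, with a mean of 3.07 ± 0.23 (SD, n = 4). IRI arrays read 4.28, 4.25, 3.87 and 4.80, with a mean of 4.30 ± 0.38 (SD, n = 4). Every IRI array was above every Control array. The IRI+Hemin arrays read 4.45, 4.24, 4.11 and 3.67, with a mean of 4.12 ± 0.33 (SD, n = 4). IPC+IRI arrays read 3.52, 5.05, 3.47 and 4.09, with a mean of 4.03 ± 0.74 (SD, n = 4), replicate 2 standing above the rest. All arrays of the 3 injured groups were thus above all 4 Control arrays. The Hemin arrays read 3.43, 3.05, 4.10 and 3.28, with a mean of 3.47 ± 0.45 (SD, n = 4), and overlapped Control as well as the injured groups.

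Aqp3, the basolateral water and glycerol channel of the same cells, moved less. Control arrays read 3.87, 4.51, 3.79 and 3.64, with a mean of 3.95 ± 0.38 (SD, n = 4), of which replicate 2 was high. IRI arrays read 4.11, 4.27, 3.84 and 4.12, with a mean of 4.08 ± 0.18 (SD, n = 4). The 2 groups overlapped. Kidneys of the IRI+Hemin group read 4.70, 4.47, 4.47 and 4.42 (mean 4.52 ± 0.12, SD, n = 4), IPC+IRI arrays 4.80, 4.44, 4.31 and 4.22 (mean 4.44 ± 0.25, SD, n = 4) and Hemin arrays 4.52, 4.33, 4.57 and 4.55 (mean 4.49 ± 0.11, SD, n = 4). Apart from Control replicate 2, every array of these 3 pretreated groups was above every Control array. None of the 3 groups shared a scan day with Control, so for Aqp3 pretreatment and scan day cannot be told apart.

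Aqp4, the other basolateral water channel, was dim, and its Control arrays had 13 to 39 intensity units. Control arrays read -2.69, -3.14, -3.82 and -2.49, with a mean of -3.03 ± 0.59 (SD, n = 4). IRI arrays read -2.42, -1.95, -2.79 and -0.84, with a mean of -2.0 ± 0.85 (SD, n = 4). The 2 groups overlapped, and IRI replicate 4 was the brightest of the 8. IRI+Hemin arrays read -1.18, -1.36, -1.20 and -0.96 (mean -1.18 ± 0.17, SD, n = 4), IPC+IRI arrays -2.06, -0.34, -2.09 and -1.71 (mean -1.55 ± 0.82, SD, n = 4) and Hemin arrays -1.83, -2.99, -1.12 and -1.89 (mean -1.96 ± 0.77, SD, n = 4). All IRI+Hemin and IPC+IRI arrays were above all Control arrays, and Hemin overlapped Control.

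The 6 other markers of principal cells bear on the collecting duct genes. Their summed level, in multiples of the 75th percentile, was 23.4 to 25.8 in Control, 21.6 to 26.1 in IRI, 22.1 to 55.0 in IRI+Hemin, 26.7 to 49.4 in IPC+IRI and 31.2 to 37.5 in Hemin. The IRI range covered the Control range, while the IPC+IRI and Hemin ranges lay wholly above it. None of the 6 was undetected on all arrays. In IRI vs Control 0 of the 6 were called higher and 1 lower, Hsd11b2, the enzyme that inactivates glucocorticoids in these cells, by -0.71, against 17% higher and 33.7% lower of all genes. Hsd11b2 was also called lower in IPC+IRI vs Control (-1.35), IRI+Hemin vs IRI (-0.74) and Hemin vs Control (-1.0). Fxyd4, a regulator of the sodium pump, was called higher in IPC+IRI vs Control (1.05) and Hemin vs Control (1.14), and Scnn1g, a subunit of the epithelial sodium channel, in IPC+IRI vs Control (0.44) and IRI+Hemin vs IRI (0.40), while Scnn1b, Gata3 and Tcfcp2l1 were called in none of the 5 comparisons the study names. The part of cell number in the Avpr2, Aqp2 and Aqp3 differences was not tested. The 4 thick limb markers ran from -1.63 to 0.15 (median -0.08) in IRI vs Control and from -0.34 to 1.29 (median 0.27) in IPC+IRI vs IRI. Their part was not tested either.

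Aqp6, the intercalated cell channel, was low in every group that had received hemin or preconditioning. None of these groups shared a scan day with Control or IRI, so for Aqp6 pretreatment and scan day cannot be told apart. Control arrays read 1.42, -0.03, 1.04 and 0.63, with a mean of 0.76 ± 0.62 (SD, n = 4). IRI arrays read 1.07, 1.22, 0.94 and 1.12, with a mean of 1.09 ± 0.12 (SD, n = 4). The 2 groups overlapped. The IRI+Hemin arrays read -0.15, -0.88, -0.67 and 0.02 (mean -0.42 ± 0.42, SD, n = 4), IPC+IRI arrays 0.13, -0.55, -0.25 and 0.69 (mean 0.01 ± 0.53, SD, n = 4) and Hemin arrays -0.36, 0.02, -0.29 and -0.03 (mean -0.17 ± 0.19, SD, n = 4). Every one of these 12 arrays lay below every IRI array, but Control replicates 2 and 4 lay within their range. The summed level of 6 intercalated cell markers was 27.5 to 39.0 in Control, 21.0 to 30.9 in IRI, 23.8 to 36.7 in IRI+Hemin, 32.4 to 44.2 in IPC+IRI and 33.8 to 40.5 in Hemin, and its part in the Aqp6 differences was not tested. In IPC+IRI vs IRI, where Aqp6 fell, 4 of the 6 were called higher, led by Slc4a1, the basolateral anion exchanger (1.06), and Atp6v1b1, a proton pump subunit (0.72), and 2 lower, Foxi1, the transcription factor of these cells (-0.85), and Atp6v0d2, another pump subunit (-0.70), against 26% higher and 17.7% lower of all genes. In IRI vs Control 0 were higher and 3 lower, led by Slc4a1 (-0.85) and Atp6v1b1 (-0.61), against 17% and 33.7% of all genes. In IPC+IRI vs Control 0 were higher and 2 lower, Atp6v0d2 (-1.0) and Foxi1 (-0.68), against 23.1% and 32.6%. In IRI+Hemin vs IRI 0 were higher and 2 lower, Atp6v0d2 (-1.23) and Atp6v1g3 (-0.44), against 26.1% and 18%. In Hemin vs Control 0 were higher and 1 lower, Atp6v0d2 (-1.35), against 18.4% and 17.5%. The highest of the 6 stood at 0.38, 0.39 and 0.42 in these last 3 comparisons, not called.

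Aqp1, the main water channel of the proximal tubule, varied over a narrow range. Control arrays read 6.14, 6.09, 5.97 and 5.97 (mean 6.04 ± 0.09, SD, n = 4), and IRI arrays 5.82, 5.82, 5.92 and 5.32 (mean 5.72 ± 0.27, SD, n = 4). All IRI arrays were below all Control arrays, replicate 4 standing lowest. Kidneys of the IRI+Hemin group read 6.01, 6.17, 5.91 and 6.72 (mean 6.20 ± 0.36, SD, n = 4), IPC+IRI arrays 6.10, 6.30, 6.06 and 6.43 (mean 6.22 ± 0.17, SD, n = 4) and Hemin arrays 6.52, 6.00, 6.46 and 6.37 (mean 6.34 ± 0.23, SD, n = 4). These 3 groups overlapped Control, and only IRI+Hemin overlapped IRI.

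Aqp7, the glycerol-permeable channel of the straight proximal tubule, was highest in the Hemin group. Control arrays read -0.55, -0.59, -0.63 and -0.66 (mean -0.61 ± 0.05, SD, n = 4), IRI arrays -0.82, -0.71, -0.70 and -1.27 (mean -0.88 ± 0.27, SD, n = 4) and Hemin arrays 0.05, -0.07, -0.34 and -0.17 (mean -0.13 ± 0.17, SD, n = 4). The 3 groups did not overlap. IRI+Hemin arrays read -0.76, -0.58, -0.87 and -0.40 (mean -0.65 ± 0.21, SD, n = 4) and IPC+IRI arrays -0.73, -1.05, -0.58 and -0.44 (mean -0.70 ± 0.26, SD, n = 4). Both spanned the Control values.

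Aqp1 and Aqp7 lie in the proximal tubule, and Aqp11 is found there too. The summed level of 8 other proximal tubule markers was 386 to 432 in Control, 304 to 397 in IRI, 224 to 298 in IRI+Hemin, 239 to 298 in IPC+IRI and 339 to 376 in Hemin, and its part in the differences of these 3 genes was not tested. In IRI vs Control 0 of the 8 were called higher and 3 lower, with the largest changes in Slc5a12, a lactate transporter (-1.67), and Lrp2, the endocytic receptor megalin (-0.95). Those higher in IPC+IRI vs IRI were 2, Slc5a12 (1.02) and Cubn, the receptor cubilin (0.44), and 3 lower, led by Slc34a1, a phosphate transporter (-0.70), and Slc22a6, an organic anion transporter (-0.48). The 4 lower in IPC+IRI vs Control were led by Slc34a1 (-0.74) and Lrp2 (-0.71). In IRI+Hemin vs IRI Slc5a12 (1.03) and Lrp2 (0.34) were higher and Slc34a1 (-0.91) and Slc13a3, a dicarboxylate transporter (-0.88), lower. In Hemin vs Control only Slc34a1 was called, lower by 0.54. In IRI+Hemin vs Hemin and IPC+IRI vs Hemin, where Aqp7 and Aqp11 fell, 6 and 4 of the 8 were lower and none higher. The shares of all genes called stand beside each comparison below.

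Aqp8, an intracellular channel permeable to water and to hydrogen peroxide, was the most variable gene in Control, with arrays at -2.78, -0.60, -1.51 and -1.01 (mean -1.47 ± 0.95, SD, n = 4). IRI arrays read -1.25, -2.47, -1.45 and -1.94 (mean -1.78 ± 0.54, SD, n = 4). Both groups covered much the same range. The IRI+Hemin arrays read -0.51, -1.05, -1.43 and -1.80 (mean -1.20 ± 0.55, SD, n = 4), IPC+IRI arrays -0.16, -0.29, -0.43 and -1.02 (mean -0.47 ± 0.38, SD, n = 4) and Hemin arrays -0.62, -0.76, -0.75 and -1.21 (mean -0.84 ± 0.26, SD, n = 4). The IPC+IRI and Hemin arrays all lay above the IRI arrays.

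Aqp11, a channel of the endoplasmic reticulum whose loss in mice gives polycystic kidneys, was lower in the injured groups. Control arrays read 2.71, 2.43, 2.57 and 2.47 (mean 2.55 ± 0.12, SD, n = 4) and Hemin arrays 2.69, 2.66, 2.51 and 2.73 (mean 2.65 ± 0.09, SD, n = 4). IRI arrays read 2.17, 2.45, 2.35 and 1.92 (mean 2.22 ± 0.23, SD, n = 4), IRI+Hemin arrays 2.17, 2.19, 2.00 and 2.34 (mean 2.18 ± 0.14, SD, n = 4) and IPC+IRI arrays 2.35, 2.26, 2.28 and 2.11 (mean 2.25 ± 0.10, SD, n = 4). The 3 injured groups all lay below the Hemin arrays, and IRI replicate 2 alone reached into the Control range.

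IRI vs Control sets kidneys clamped and reperfused for 6 h against kidneys of unoperated mice, so anesthesia and surgery differ along with injury. Avpr2 and Aqp11 fell and Aqp2 rose. Of the 9 genes 1 was called higher and 2 lower, while over 17719 genes tested 17% were called higher and 33.7% lower, so the share of calls among the 9 genes was near the background. Their median log2 fold change was -0.27, against -0.17 over all genes. Avpr2 fell by 1.68 on the log2 scale (SE 0.28, 95% interval -2.26 to -1.10), 3.21-fold, with an adjusted p of 8.72e-05. Aqp2 rose by 1.23 (SE 0.30, 95% interval 0.59 to 1.87), 2.35-fold, with an adjusted p of 0.00273. Both calls held with any 1 array left out and in every alternative processing other than the study's fold cutoffs, which Aqp2 did not reach. Aqp11 fell by 0.32 (SE 0.12), 1.25-fold, with an adjusted p of 0.0265, and this call was lost without Control replicate 1 (-0.27) or 3 (-0.31) or IRI replicate 1 (-0.30) or 4 (-0.22). It was -0.20 and not called without scaling, nor was it called in the fit of only the 8 arrays compared (adjusted p 0.0878), while with the deposited log2 values it was -0.51 and called. Aqp1 and Aqp7 had log2 differences of -0.32 and -0.27 with adjusted p of 0.126 and 0.146, although every IRI array lay below every Control array. Without IRI replicate 4 these differences were -0.19 and -0.14, and in 4 alternatives Aqp1 and in 2 Aqp7 was called lower. For Aqp4 the difference was 1.03 (SE 0.45) with an adjusted p of 0.0653, and for Aqp3, Aqp6 and Aqp8 it was 0.13, 0.32 and -0.30. Of all calls in this comparison 33.5% were higher, between 26.5% and 39.9% over the other scalings, 56.5% with normexp and 19.6% with the deposited values. Markers called higher and lower were 0 and 3 of 8 proximal tubule, 0 and 1 of 4 thick limb, 1 and 0 of 3 distal convoluted tubule, 1 and 2 of 5 endothelial, 0 and 0 of 3 erythroid and 1 and 0 of 4 leukocyte markers.

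**Figure D2:**
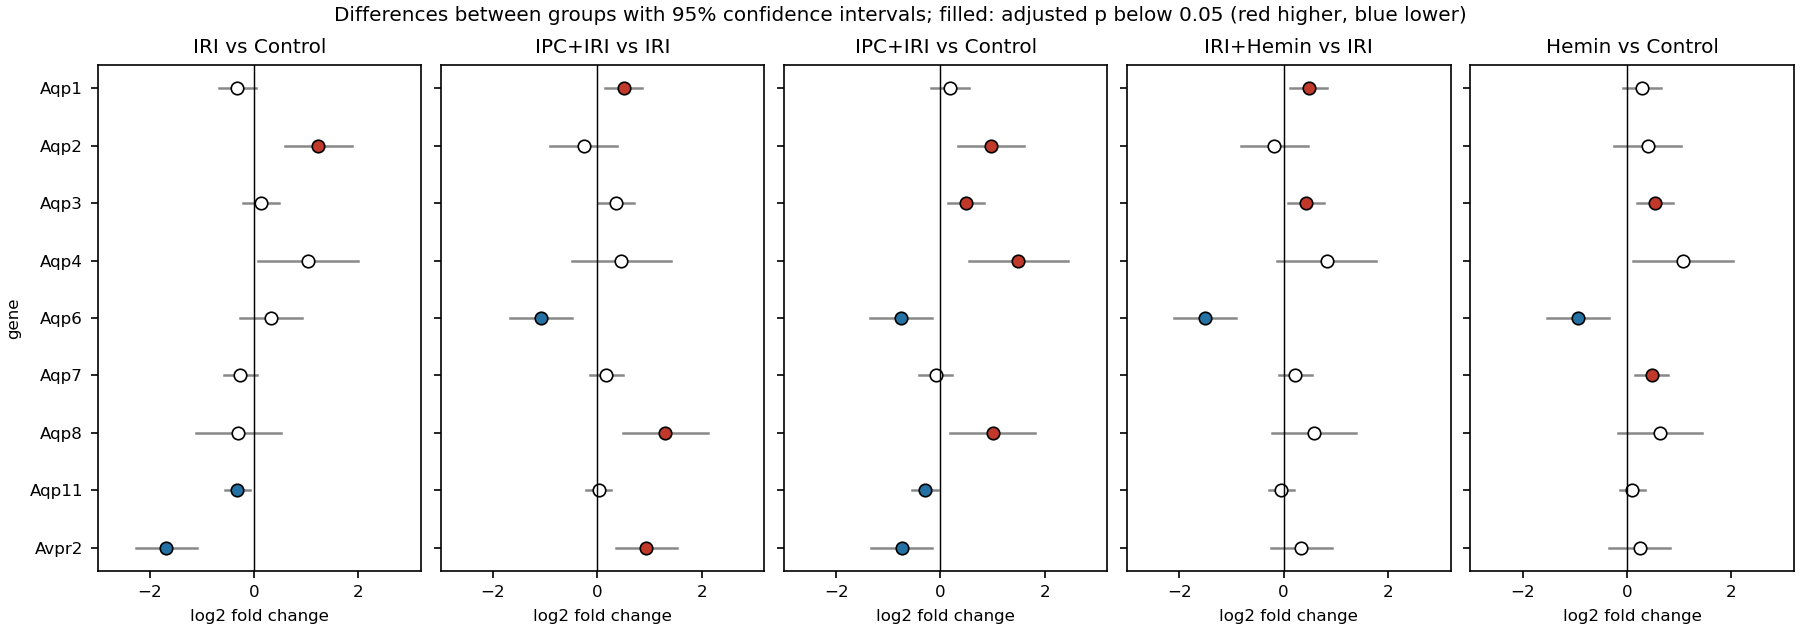
Log2 fold change (horizontal axis) of each of the 9 genes (vertical axis) in the 5 comparisons the study names, with 95% confidence intervals (lines); filled points have an adjusted p below 0.05, red higher and blue lower in the group named first. Avpr2 is called lower in IRI vs Control (-1.68) and higher in IPC+IRI vs IRI (0.94), Aqp2 is called higher in IRI vs Control (1.23), and Aqp6 is called lower in the other 4 comparisons (-1.08, -0.76, -1.51 and -0.93).

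IPC+IRI vs IRI asks what preconditioning changed in injured kidney. Aqp1, Aqp8 and Avpr2 rose and Aqp6 fell. The counts of 3 higher and 1 lower among 9 stood against 26% higher and 17.7% lower of 17668 genes, and the median of the 9 genes was 0.36 against 0.09 over all. Avpr2 rose by 0.94 (SE 0.28, 95% interval 0.35 to 1.52), 1.91-fold, with an adjusted p of 0.0113. Aqp8 rose by 1.30 (SE 0.39), 2.47-fold, with an adjusted p of 0.0111, and both calls held with any 1 array left out, while with normexp background correction the Aqp8 difference was 0.66 and still called. Aqp6 fell by 1.08 (SE 0.28), 2.12-fold, with an adjusted p of 0.00525, and was not called without scaling (-0.76). Aqp1 rose by 0.50 (SE 0.17), 1.42-fold, with an adjusted p of 0.0239, a call lost without IRI replicate 4 (0.37) or IPC+IRI replicate 2 (0.48) or 4 (0.44), and its difference was 0.82 without scaling. The Aqp2 difference was -0.26 with a 95% interval of -0.90 to 0.38 and an adjusted p of 0.50, and Aqp3, Aqp4, Aqp7 and Aqp11 had differences of 0.36, 0.46, 0.18 and 0.03. Of all calls 59.5% were higher, between 53.8% and 90.9% over the other scalings and 49.0% with normexp. Among markers of other cells 2 and 3 of 8 proximal tubule, 1 and 0 of 4 thick limb, 0 and 0 of 3 distal convoluted tubule, 1 and 2 of 5 endothelial, 0 and 3 of 3 erythroid and 2 and 0 of 5 leukocyte markers were called higher and lower. The summed erythroid level was 10.6 to 54.2 in IPC+IRI and 75.9 to 97.2 in IRI, without overlap, and 1 of the 4 listed erythroid genes was above background on no array. The summed leukocyte level was 5.87 to 21.8 in IPC+IRI and 3.48 to 5.62 in IRI, also without overlap.

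IPC+IRI vs Control had 4 of the 9 genes called higher and 3 lower, against 23.1% higher and 32.6% lower of 18352 genes. The median of the 9 was 0.18 and of all genes -0.09. The 4 that rose were Aqp4 by 1.49 (SE 0.45), 2.80-fold, adjusted p 0.00959, Aqp2 by 0.97, 1.95-fold, adjusted p 0.012, Aqp8 by 1.00, 2.00-fold, adjusted p 0.0347, and Aqp3 by 0.49, 1.41-fold, adjusted p 0.0169. Those that fell were Aqp6 by 0.76, adjusted p 0.03, Avpr2 by 0.74, adjusted p 0.0299, and Aqp11 by 0.30, adjusted p 0.0364. The differences of Aqp1 and Aqp7 were 0.18 and -0.09. In the fit of only the 8 arrays compared 2 were called higher and 0 lower, and the calls of Aqp3, Aqp6, Aqp8, Aqp11 and Avpr2 were lost (adjusted p from 0.0582 to 0.0995). Only the Aqp4 call held whichever array was left out, and it was lost with normexp background correction (0.57). The Aqp2 call was lost without IPC+IRI replicate 2 (0.63), the Aqp3 call without Control replicate 3 (0.44) or 4 (0.39) or IPC+IRI replicate 1 (0.37), and the Aqp6 call without Control replicate 1 (-0.54) or 3 (-0.67) or IPC+IRI replicate 2 (-0.57) or 3 (-0.67). The Aqp8 call was lost without Control replicate 1 (0.57) or 3 (0.99) or IPC+IRI replicate 1 (0.90), 2 (0.94) or 3 (0.99), and the Avpr2 call without Control replicate 1 (-0.68) or 2 (-0.71) or IPC+IRI replicate 3 (-0.69) or 4 (-0.47). The Aqp11 call was lost without Control replicate 1 (-0.24) or 3 (-0.29) or IPC+IRI replicate 2 (-0.30), 3 (-0.31) or 4 (-0.25), and its value without scaling was 0.14. Without scaling Aqp3 was at 0.93, and Aqp6 (-0.32) and Avpr2 (-0.31) were not called, and with normexp Aqp8 (0.59) and Aqp11 (-0.27) were not called. Aqp8 was also not called with the percentile over bright probes (0.89) or the deposited log2 values (0.95), nor Aqp11 with no filter (adjusted p 0.0509) or the replicate block (0.0541). With quantile normalization Aqp3 (0.29) and Aqp2 (0.79) were not called and Aqp11 was at -0.46. Of all calls 41.5% were higher, between 33.2% and 75.2% over the other scalings. Here 0 and 4 of 8 proximal tubule, 0 and 0 of 4 thick limb, 1 and 0 of 3 distal convoluted tubule, 0 and 1 of 5 endothelial, 0 and 0 of 3 erythroid and 3 and 0 of 5 leukocyte markers were called higher and lower. The summed leukocyte level was 5.87 to 21.8 in IPC+IRI and 2.99 to 4.64 in Control, without overlap.

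IRI+Hemin vs IRI asks what hemin changed in injured kidney. Aqp6 fell, and Aqp1 and Aqp3 rose by less. These 2 higher and 1 lower stood against 26.1% higher and 18% lower of 17835 genes, and the median of the 9 was 0.34 against 0.08 over all. Aqp6 fell by 1.51 (SE 0.28, 95% interval -2.10 to -0.91), 2.84-fold, with an adjusted p of 0.000445, and was called in every alternative and with any 1 array left out. Aqp1 rose by 0.48, 1.40-fold, with an adjusted p of 0.0298, a call lost without IRI replicate 4 (0.35) or IRI+Hemin replicate 4 (0.31). Aqp3 rose by 0.43, 1.35-fold, with an adjusted p of 0.0404, a call lost without IRI replicate 1 (0.44), 3 (0.35) or 4 (0.44) or IRI+Hemin replicate 1 (0.37), 2 (0.45) or 3 (0.45). Without scaling the Aqp1 and Aqp3 differences were 0.84 and 0.80, and that of Aqp3 was 0.84 with normexp. The Aqp3 call was lost with quantile normalization (0.34) and with no filter (adjusted p 0.0516), and the Aqp1 call in the fit of only the 8 arrays compared (adjusted p 0.0963). Avpr2 differed by 0.34 with a 95% interval of -0.24 to 0.92 and an adjusted p of 0.337. The Aqp2 difference was -0.18 with an interval of -0.82 to 0.46, and Aqp4, Aqp7, Aqp8 and Aqp11 had differences of 0.83, 0.22, 0.58 and -0.05. Of all calls 59.2% were higher, between 55.4% and 91.5% over the other scalings and 44.9% with normexp. Of the markers, 2 and 2 of 8 proximal tubule, 2 and 0 of 4 thick limb, 0 and 2 of 3 distal convoluted tubule, 3 and 1 of 5 endothelial, 0 and 0 of 3 erythroid and 0 and 0 of 5 leukocyte markers were called higher and lower. The summed endothelial level was 17.9 to 23.3 in IRI+Hemin and 12.4 to 16.7 in IRI, without overlap, and its part in the Aqp1 difference was not tested.

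Hemin vs Control asks what hemin changed without surgery. Aqp3 and Aqp7 rose and Aqp6 fell, so 2 were higher and 1 lower of 9, against 18.4% and 17.5% of 18579 genes. The median of the 9 was 0.40 and of all genes 0.06. Aqp7 rose by 0.47, 1.39-fold, with an adjusted p of 0.0197, its arrays all above Control, and the call was lost without Hemin replicate 1 (0.41). Aqp3 rose by 0.54, 1.45-fold, with an adjusted p of 0.0167, a call lost without Control replicate 3 (0.49) or 4 (0.44). Aqp6 fell by 0.93, 1.91-fold, with an adjusted p of 0.0166, a call lost without Control replicate 1 (-0.71) or 3 (-0.84). Without scaling Aqp3 and Aqp7 were at 1.11 and 1.04 and Aqp6 was at -0.36 and not called, and with normexp Aqp7 (0.35) and with quantile normalization Aqp3 (0.38) were not called. The differences of Avpr2, Aqp2, Aqp1, Aqp4, Aqp8 and Aqp11 were 0.25, 0.40, 0.29, 1.08, 0.64 and 0.10, with adjusted p of 0.0707 or above. Of all calls 51.2% were higher, between 35.0% and 94.8% over the other scalings, and without scaling the median of all genes was 0.62. Called higher and lower were 0 and 1 of 8 proximal tubule, 1 and 0 of 4 thick limb, 0 and 1 of 3 distal convoluted tubule, 0 and 0 of 5 endothelial, 0 and 0 of 3 erythroid and 0 and 0 of 5 leukocyte markers.

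IRI+Hemin vs Control called Aqp2, Aqp3 and Aqp4 higher and Aqp6, Aqp11 and Avpr2 lower, 3 and 3 of 9, against 24.3% and 33.1% of 18489 genes. Aqp4 rose by 1.86, 3.63-fold, with an adjusted p of 0.00202, and Aqp2 by 1.05, 2.07-fold, with an adjusted p of 0.00706. Avpr2 fell by 1.34, 2.53-fold, with an adjusted p of 0.000541, and Aqp6 by 1.18, 2.27-fold, with an adjusted p of 0.00178. Aqp3 rose by 0.57 and Aqp11 fell by 0.37. All 6 calls held with any 1 array left out, but that of Aqp2 was lost with normexp (0.83) and those of Aqp6 (-0.70) and Aqp11 (0.11) without scaling. With normexp Aqp4 was at 0.75 and Aqp3 at 0.89, and without scaling Aqp3 was at 1.05 and Avpr2 at -0.86, all still called. Of all calls 42.3% were higher, between 33.4% and 77.4% over the other scalings. Of markers of other cells 0 and 6 of 8 proximal tubule, 1 and 1 of 4 thick limb, 0 and 2 of 3 distal convoluted tubule, 1 and 1 of 5 endothelial, 0 and 0 of 3 erythroid and 2 and 0 of 5 leukocyte markers were called higher and lower. This and the comparisons above share the Control or the IRI arrays and are not independent of each other.

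IRI+Hemin vs Hemin compares mice with and without injury that had all received hemin, and Avpr2, Aqp7 and Aqp11 fell. None of the 9 was higher and 3 were lower, against 16.4% and 27.8% of 18634 genes. Avpr2 fell by 1.59, 3.00-fold, with an adjusted p of 0.000225, Aqp7 by 0.52 with an adjusted p of 0.0096, and Aqp11 by 0.47 with an adjusted p of 0.00319. These 3 genes were also the ones lower in IPC+IRI vs Hemin, whose arrays shared a scan day, by 0.99, 0.57 and 0.40, with adjusted p of 0.0101, 0.00695 and 0.0121. Both comparisons use the same Hemin arrays and are not independent, so the match is not a separate observation. In IPC+IRI vs Hemin, too, none was higher and 3 were lower, against 13.1% and 22.7% of 18544 genes. All 6 calls held with any 1 array left out, and that of Aqp11 in IPC+IRI vs Hemin was lost without scaling (-0.53). Of all calls 37.1% were higher in the first of these comparisons, between 27.2% and 42.0% over the other scalings and 47.2% with normexp. In the second 36.6% were higher, between 25.3% and 40.6%, with 49.4% under normexp and 23.8% with the deposited values. Markers in IRI+Hemin vs Hemin were called higher and lower for 0 and 6 of 8 proximal tubule, 1 and 1 of 4 thick limb, 0 and 1 of 3 distal convoluted tubule, 0 and 1 of 5 endothelial, 0 and 0 of 3 erythroid and 1 and 0 of 5 leukocyte markers. For IPC+IRI vs Hemin these counts were 0 and 4 of 8 proximal tubule, 0 and 1 of 4 thick limb, 3 and 0 of 3 distal convoluted tubule, 0 and 1 of 5 endothelial, 0 and 0 of 3 erythroid and 3 and 0 of 5 leukocyte markers. The summed leukocyte level was 5.87 to 21.8 in IPC+IRI and 3.78 to 4.70 in Hemin, without overlap.

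IRI vs Hemin called 2 of the 9 higher and 6 lower, against 20.3% and 39.3% of 18352 genes, and both the treatment and the injury differ between its groups. Avpr2 fell by 1.93 with an adjusted p of 1.47e-05, and Aqp1, Aqp7 and Aqp11 fell by 0.62, 0.74 and 0.43. Aqp6 rose by 1.25. The Aqp2 call (0.83) was lost without IRI replicate 4 (0.67) or Hemin replicate 2 (0.69) or 4 (0.77). The Aqp3 call (-0.41) was lost without IRI replicate 1 (-0.42), 3 (-0.32) or 4 (-0.42) or Hemin replicate 1 (-0.40), 3 (-0.38) or 4 (-0.39). The Aqp8 call (-0.94) was lost without IRI replicate 2 (-0.71) or 4 (-0.89) or Hemin replicate 1 (-0.87), 2 (-0.92) or 3 (-0.91), and with normexp, where it was -0.33. It was also lost with quantile normalization (-0.88), the percentile over bright probes (-0.91), no filter (adjusted p 0.0564) and the replicate block (adjusted p 0.0579). Without scaling Aqp1, Aqp3, Aqp7 and Aqp11 were at -1.06, -0.85, -1.19 and -0.87, Aqp6 was at 0.81, and Aqp2 (0.39) was not called. The Aqp2 call was lost with normexp (0.60) and the deposited log2 values (0.58) as well, and that of Aqp3 with quantile normalization (-0.33) and no filter (adjusted p 0.0571). With the deposited log2 values Aqp3 was at -0.66 and Aqp11 at -0.68. Of all calls 34.1% were higher, between 10.3% and 40.1% over the other scalings and 54.7% with normexp. Markers in IRI vs Hemin were called higher and lower for 1 and 4 of 8 proximal tubule, 0 and 2 of 4 thick limb, 1 and 0 of 3 distal convoluted tubule, 2 and 2 of 5 endothelial, 0 and 0 of 3 erythroid and 1 and 0 of 5 leukocyte markers.

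The 2 pretreatments were set side by side in IPC+IRI vs IRI+Hemin, where limma called 0 of the 9 genes higher and 0 lower, against 6.2% and 5.43% of 18095 genes. Only Avpr2 had an unadjusted p below 0.05, 0.0454, and it was called without IPC+IRI replicate 4 (0.87). Of all calls 53.3% were higher, between 50.6% and 56.5% over the other scalings, 45.5% with normexp and 41.9% with the deposited values. The interaction, which asks whether injury changed a gene differently with hemin than without, called 0 of the 9 higher and 0 lower, against 5.83% and 1.95% of 19064 genes. For Avpr2 the interaction was 0.10 with a 95% interval of -0.73 to 0.92 and an adjusted p of 0.922, and for Aqp2 it was -0.58 with an interval of -1.49 to 0.33 and an adjusted p of 0.467. These intervals still allow differences of the size of many of the changes above. Of all calls in the interaction 75% were higher, between 64.7% and 84.8% over the other scalings and 89.2% with the deposited values.

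When the groups were ordered by their mean, Avpr2 rose from IRI through IRI+Hemin, IPC+IRI and Control to Hemin, and of these neighbours only IPC+IRI and Control differed (adjusted p 0.0299). Aqp2 had the order Control, Hemin, IPC+IRI, IRI+Hemin and IRI from low to high, with no pair of neighbours called. Aqp6 ran from IRI+Hemin through Hemin, IPC+IRI and Control to IRI, and only the step from IPC+IRI to Control was called (0.03). Aqp7 ran from IRI through IPC+IRI, IRI+Hemin and Control to Hemin, with the last step called (0.0197), and Aqp11 from IRI+Hemin through IRI, IPC+IRI and Control to Hemin, with the step from IPC+IRI to Control called (0.0364). Aqp1 was lowest in IRI and highest in Hemin, Aqp3 and Aqp4 were lowest in Control and highest in IRI+Hemin, and Aqp8 was lowest in IRI and highest in IPC+IRI, with no neighbours called. In all 4 of 36 pairs of neighbours were called, all of them by limma.

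**Figure D3:**
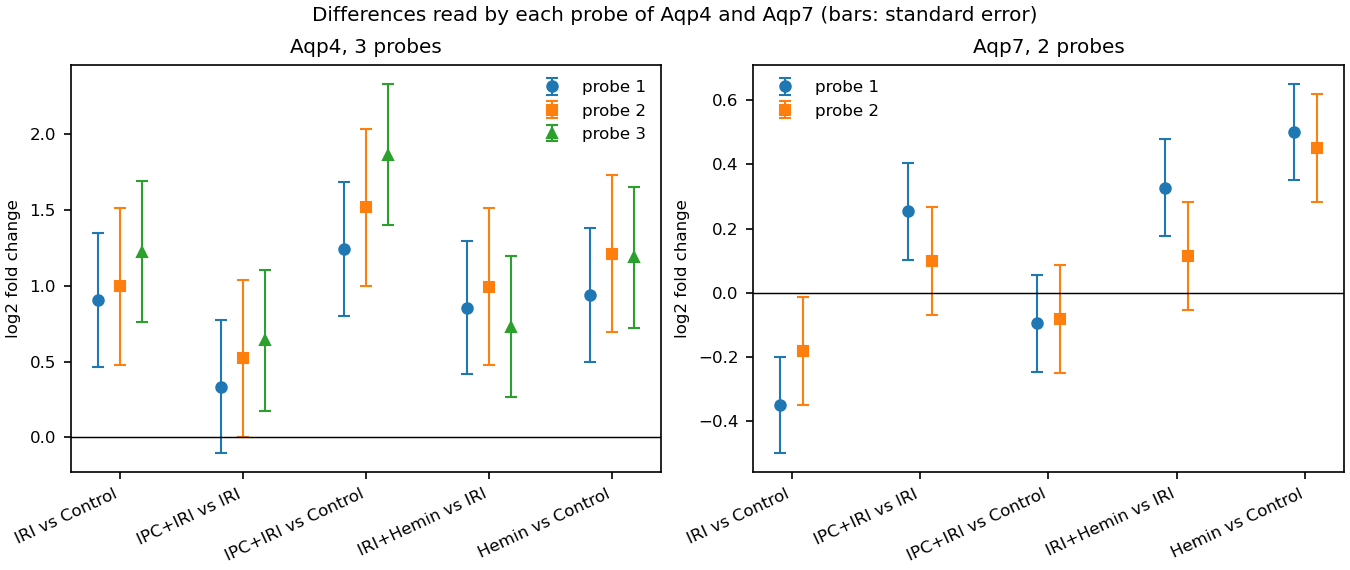
Log2 fold change (vertical axis) read by each of the 3 Aqp4 probes (left) and the 2 Aqp7 probes (right) in the 5 comparisons the study names (horizontal axis), with the standard error (bars). The 3 Aqp4 probes lie on one side of 0 in each comparison, for example at 1.24, 1.52 and 1.87 in IPC+IRI vs Control.

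The genes with several probes allow a check within the array. In IPC+IRI vs Control the 3 Aqp4 probes gave 1.24, 1.52 and 1.87, with limma adjusted p over probes of 0.022, 0.018 and 0.0025. In IRI vs Control, where the gene was not called, they gave 0.91, 1.00 and 1.23, and only the last was called (0.038). The probes thus had one direction and differed in size. The 2 Aqp7 probes gave 0.50 and 0.45 in Hemin vs Control, with adjusted p of 0.015 and 0.043, and -0.35 and -0.18 in IRI vs Control, not called. As they overlap in the genome they are not separate readings of the transcript.

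Other genes of the vasopressin water pathway, from receptor-coupled G proteins and adenylate cyclases to CREB factors and the vesicle and dynein proteins that carry Aqp2, had calls in both directions, as did all genes. Of 40 listed genes 37 were tested in IRI vs Control, 10 were called higher and 9 lower, and their median was -0.03, against 17% and 33.7% called and a median of -0.17 over all genes. In IPC+IRI vs IRI 11 of 38 were higher and 9 lower (median 0.03), against 26% and 17.7%. In IPC+IRI vs Control 9 and 9 of 38 were called (median 0.07), against 23.1% and 32.6%. In IRI+Hemin vs IRI 13 and 11 of 38 were called (median 0.06), against 26.1% and 18%, and in Hemin vs Control 12 and 9 of 40 (median 0.15), against 18.4% and 17.5%. Creb5 was called higher in IRI vs Control and in IPC+IRI vs Control, with fitted differences of 1.51 and 2.00, but it was above background on only 1 of 4 Control arrays, so neither the sizes nor their rank are well measured, and it passed the filter only through the injured group. In IRI vs Control Arhgdig (1.46) was also called higher, and the largest called changes downward were those of Dync2h1 (-0.69) and Dctn5 (-0.65), of the dynein and dynactin motors. In IPC+IRI vs IRI the largest were Creb3l3 (1.78) and Creb1 (1.06), the factor that binds the CRE in response to protein kinase A, upward and Creb3l1 (-1.30) and Rab5b (-1.08), an early endosome GTPase, downward. The largest in IPC+IRI vs Control were, besides Creb5, Creb3l3 (1.51) against Creb3l1 (-1.56) and Rab5b (-1.35). In IRI+Hemin vs IRI they were Creb3l3 (1.38) and Creb1 (1.08) against Dync1li1 (-1.19), a dynein chain, and Prkacb (-1.09), a catalytic subunit of protein kinase A. In Hemin vs Control they were Creb3l4 (0.89) and Stx4a (0.60), a membrane fusion protein, against Creb3l1 (-1.36) and Rab5b (-1.14). In the interaction 1 gene of the list was called, Prkx, at -0.45.

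**Figure D4:**
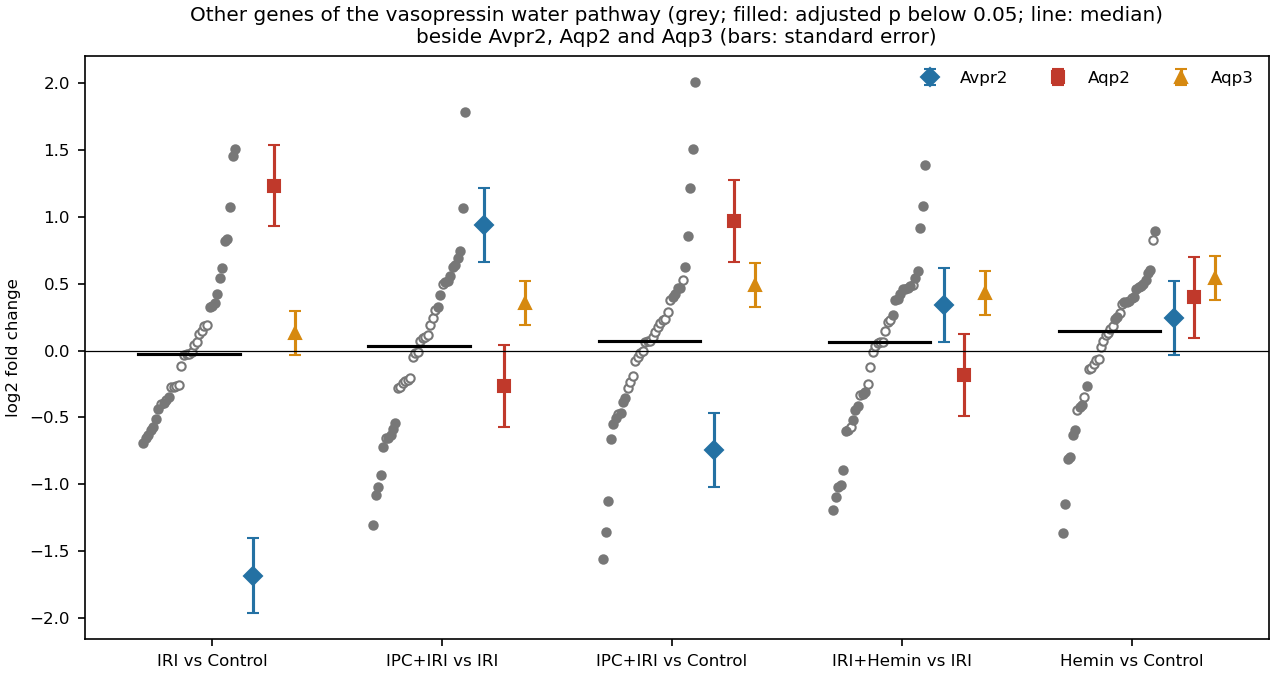
Log2 fold change (vertical axis) of the tested genes of the vasopressin water pathway (grey points, filled where the adjusted p is below 0.05, with the median as a line) in the 5 comparisons the study names (horizontal axis), beside Avpr2, Aqp2 and Aqp3 with their standard errors. The medians of the other pathway genes lie between -0.03 and 0.15, while Avpr2 lies at -1.68 and Aqp2 at 1.23 in IRI vs Control.

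Of the 4 remaining aquaporin names on the array, Mip and Aqp12 were above background on no array and Aqp9 on 1 Control array. Aqp5, a channel of secretory glands and lung, was above background on no Control array. It was at least 3.29-fold higher in IRI, where 3 of 4 arrays measured it, at least 6.24-fold higher in IPC+IRI and at least 3.15-fold higher in IRI+Hemin, the bound being the lowest signal well above background on each Control array. As Aqp5 passed the filter on dim genes only through the injured groups, its direction was fixed by that filter and nothing is read from a test of it. The IPC+IRI bound rests on replicate 2, at a log2 level of -0.22, and without it was 3.53-fold. Without replicate 1, the brightest of its group, the IRI bound was 2.32-fold and the IRI+Hemin bound 2.79-fold. Uninjured Hemin kidneys were not all without Aqp5: 1 of 4 Hemin arrays was above background, at -1.81, brighter than any IRI array (the highest was -2.10), and Hemin vs Control was not tested. Among the other vasopressin and oxytocin receptors, Avpr1a, the V1a receptor, was called in none of the 5 comparisons the study names (-0.32, 0.47, 0.15, -0.01 and 0.04), and Oxtr was above background on no array. Avpr1b, the V1b receptor, was above background on no IRI array and on 3 of 4 Hemin arrays. It was at least 1.23-fold higher in Hemin than in IRI, a bound that was 1.09-fold without Hemin replicate 1, and it was not called in the other 4 comparisons that tested it. It passed the filter only through the Hemin arrays, so its direction in IRI vs Hemin was fixed by the filter in the same way.

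Of 7 genes of hypertonicity and urea handling, 1 was called higher and 3 lower in IRI vs Control, against 17% and 33.7% of all genes. Nfat5, the tonicity-responsive factor that acts on such genes and on Aqp2, rose by 0.36, while Slc14a2, the collecting duct urea transporter, fell by 1.12 (adjusted p 0.019) and Hspa4l, a heat shock protein, by 0.41. Of the 7, 2 were higher and 0 lower in IPC+IRI vs IRI, Slc6a6, the taurine transporter (0.83), and Hspa4l (0.59), against 26% and 17.7%. In IRI+Hemin vs IRI 3 were higher and 0 lower, against 26.1% and 18%, led by Slc6a6, which rose by 1.37 (adjusted p 3.4e-06), and Slc6a12, the betaine transporter, by 1.06. The counts were 2 higher and 0 lower in IPC+IRI vs Control, Nfat5 (0.51) and Slc6a6 (0.48), against 23.1% and 32.6%, and in Hemin vs Control only Nfat5 (0.33), against 18.4% and 17.5%.

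Over the 20 arrays, the genes whose levels ran closest to Avpr2 among 14525 genes were 2210011G09Rik, Crocc and 2810055F11Rik, with Pearson's r of 0.951, 0.941 and 0.940. Closest to Aqp2 were 1600029D21Rik (0.907), Cryab (0.887) and Ddx21 (0.883), to Aqp1 Nfs1 (0.885), Casp9 (0.875) and Cisd1 (0.873), and to Aqp3 Immp2l (0.914), Psma2 (0.904) and Snrpa1 (0.891). Among the 9 genes themselves r was 0.76 for Aqp11 with Avpr2, 0.74 for Aqp2 with Aqp4, -0.64 for Aqp2 with Avpr2 and -0.71 for Aqp3 with Aqp6. These are descriptions over arrays that share group, slide and scaling, and correlations within groups were not computed.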

How the data were processed

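Total RNA of whole kidney was labelled with 1 dye and hybridised to 20 arrays. The deposited intensity values are the authors' scanner output, background-subtracted by Feature Extraction, in a file for each array, and the deposited log2 values were the logarithms of the same processed signals. Each signal was divided by the 75th percentile of its array (43379 spots other than controls), probes of a gene were averaged on the linear scale and log2 was taken. limma 3.58.1 in R 4.3.3 fitted a mean for each group on 20 arrays, with 15 residual degrees of freedom, and was tested on simulated data. A gene was tested if at most 1 value was missing over the arrays compared and at least 3 of 4 arrays of either group were well above background. P-values were adjusted by Benjamini-Hochberg over all genes of a comparison, for 10 pairs of groups and the interaction. Nothing in the labels says that replicates were separate animals, so p-values measure the spread between these arrays, which may be technical. The number of arrays limits the precision.

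The 9 genes and the gene lists were chosen with earlier results of these data known. All 9 genes are named in every comparison. Also named are the 3 genes with the highest correlation to Aqp1, Aqp2, Aqp3 and Avpr2 over genes well above background on all arrays, the called genes of a list with the 2 largest changes in each direction (in the 5 comparisons the study names, for the pathway, hypertonicity, intercalated cell and proximal tubule lists with further marker lists given as counts), and the other aquaporins, receptors and principal cell markers. Adipocyte and pancreas markers were called in no comparison. Alternatives were other scalings, background correction, filters, SAM (the test of the study's methods), the study's fold cutoffs, fits of only 8 arrays, a replicate block and leaving out each array. The Aqp5 and Avpr1b bounds without the brightest array were added after seeing the data.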

Additional observations from a re-analysis of the deposited data

Results flagged for a closer look

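In 1 of 45 sets of 4 arrays (9 genes in 5 groups) an array stood apart from the others: Aqp1 in IRI replicate 4, with a log2 level of 5.32, had a gap to its nearest neighbour that was 0.830 of the range of the group. Chance flags about 1 in 20 such sets, or 2.25 of 45. Without this array the Aqp1 difference in IPC+IRI vs IRI was 0.37 and was no longer called.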

How the results depend on the processing

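Of 99 differences of the 9 genes (11 comparisons), 40 were called, 19 of them in every alternative other than the study's fold cutoffs and 24 whichever array was left out. Over 799 recomputed values of called differences 96 were no longer called. Only Aqp11 had a called difference that changed sign, without scaling between arrays: 0.14 in IPC+IRI vs Control and 0.11 in IRI+Hemin vs Control, which was -0.21 and -0.27 relative to the median of all genes under that setting. Of the 40 called values 26 moved by over 1.5 times in an alternative, 21 of them without scaling and 7 with normexp. Counts of the 9 genes called higher or lower that changed by more than 1.5 times are given next, in some cases beside the other count of the same comparison. Shares of all genes tested follow in brackets. Without scaling they were 1 and 1 in IRI vs Control (10.9% and 18.9%), 5 and 0 in IPC+IRI vs IRI (32.9% and 3.31%), 5 and 0 in IPC+IRI vs Control (33.7% and 11.1%), 7 and 0 in Hemin vs Control (47.2% and 2.57%), 4 and 1 in IRI+Hemin vs Control (36.2% and 10.6%), and 1 and 6 in IRI vs Hemin (6.12% and 53.2%). With quantile normalization they were 2 and 3 in IRI vs Control (18.9% and 28.5%), 2 and 3 in IPC+IRI vs Control (24.6% and 31.3%), and 1 and 1 in IRI+Hemin vs IRI (24.1% and 19.4%). With the percentile over bright probes, and likewise with the deposited log2 table, 4 were lower in IRI vs Control (39.7% and 38.6%). With normexp 2 were higher in IPC+IRI vs Control (14.7%), 1 in Hemin vs Control (10.5%) and 1 in IRI vs Hemin (23.4%), where the deposited table also gave 1 (12.1%). With no filter 1 was higher in IRI+Hemin vs IRI (17.1%). In fits of only the 8 arrays compared they were 1 and 1 in IRI vs Control (15.6% and 32.1%), 2 and 0 in IPC+IRI vs Control (20.3% and 30%), and 1 and 1 in IRI+Hemin vs IRI (23% and 15.5%). SAM called 2 higher in IRI vs Control (15.1%), 4 in IRI+Hemin vs IRI (28.9%), 7 in Hemin vs Control (35.8%) and 2 in IRI+Hemin vs Hemin (19%). The study's fold cutoffs left 0 and 1 in IRI vs Control (2.8% and 14.3%). They left 0 and 0 in IPC+IRI vs IRI (2.04% and 0.889%), IPC+IRI vs Control (2.03% and 14.1%) and Hemin vs Control (0.42% and 1.24%).

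Leaving out each array gave 1 to 2 higher and 1 to 2 lower in IRI vs Control, 2 to 3 and 1 in IPC+IRI vs IRI, 2 to 4 and 0 to 3 in IPC+IRI vs Control, 1 to 2 and 1 in IRI+Hemin vs IRI, and 1 to 3 and 0 to 1 in Hemin vs Control. It gave 3 and 3 in IRI+Hemin vs Control, 0 to 1 and 3 in IRI+Hemin vs Hemin, 0 to 1 and 0 in IPC+IRI vs IRI+Hemin, 0 and 3 in IPC+IRI vs Hemin, 1 to 2 and 4 to 5 in IRI vs Hemin, and 0 and 0 in the interaction. Arrays with the same replicate number did not deviate together (r from -0.38 to 0.21 over 40 pairs of arrays, 7 of them over 0.1), so the numbers were not taken as pairs. Control and IRI, scanned on 1 day, had r from 0.05 to 0.15, with 3 of 4 over 0.1. Hemin and IPC+IRI, also scanned on 1 day, had r from -0.38 to 0.11. The highest r, 0.21, was between IPC+IRI and IRI+Hemin, scanned on different days. The replicate block took the lower calls from 3 to 2 in IPC+IRI vs Control (Aqp11), against 31.8% of all genes. It took them from 6 to 5 in IRI vs Hemin (Aqp8), against 38.5%, and changed no other count. Slide as a random block could not be fitted and was not run. Aqp4 was dim, and normexp took its difference in IPC+IRI vs Control from 1.49 to 0.57.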
